A study of Sus scrofa with 8 samples.

Results

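A set of 8 genes for proteins and proteoglycans of the cartilage matrix was followed through single-cell RNA-seq (scRNA-seq) of pig somites and myotomes: ACAN, HAPLN1, MATN1, MATN3, MATN4, COMP, EPYC and CNMD. They were chosen by gene symbol, and all 8 were among the 21301 genes of each count matrix. Somite tissue was taken at embryonic day (E) 16, E18 and E21, and myotome tissue at E28. At each stage the series holds 1 library of Tibetan pigs (ZZ) and 1 of the Duroc × Tibetan cross (DZ), so a stage has n = 2 libraries and the tissue changed together with the step from E21 to E28. Each library pooled 5 embryos from 1 sow, and pairs of values below are given in the order ZZ, DZ. The p-values therefore measure only the spread between these pooled libraries, and the breeds serve as the replicates of a stage. Somites are the paired blocks of mesoderm beside the neural tube, and the myotome is the somite compartment that gives rise to muscle.

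As background, cartilage resists compression because aggrecan, the core protein encoded by ACAN, carries many chondroitin sulphate chains that hold water. Aggrecan is fastened to hyaluronan by link protein, the product of HAPLN1. Matrilins (MATN1, MATN3 and MATN4) and cartilage oligomeric matrix protein (COMP) bridge collagen fibrils and proteoglycans, epiphycan (EPYC) is a small leucine-rich proteoglycan of growth cartilage, and chondromodulin (CNMD) is a glycoprotein that restrains vessel growth into cartilage. In the trunk, cartilage of the vertebrae and ribs comes from the sclerotome, the ventral part of the somite, whose cells express PAX1 before they turn on the fibrillar collagen gene COL2A1. The transcription factors SOX9, SOX5 and SOX6 act on many cartilage matrix genes.

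On the Sscrofa11.1 assembly with RefSeq gene models, ACAN lies at chr7:54449830-54520606, plus strand, with 19 exons, and overlaps HAPLN3 on the opposite strand. HAPLN1 lies at chr2:91857495-91935485, minus strand, with 5 exons, and overlaps an uncharacterised gene on the opposite strand. MATN1 lies at chr6:87342030-87351483, minus strand, MATN3 at chr3:118185928-118206465, plus strand and MATN4 at chr17:47617559-47631195, minus strand. COMP lies at chr2:59061409-59068951, plus strand and EPYC at chr5:91837672-91877779, plus strand. CNMD lies at chr11:25959192-25994773, minus strand, and overlaps SUGT1 on the opposite strand. Whether the counting used strand is not given in the sources used here, so reads in the overlaps of ACAN, HAPLN1 and CNMD cannot be assigned with certainty. The 8 genes are on 7 chromosomes, with only HAPLN1 and COMP on the same one.

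The 250 bases before the RefSeq start were read from Sscrofa11.1 for each gene. They are shown for ACAN and MATN4, which were higher from E21 on, and for MATN1 and EPYC, which were counted in number only at E28, so that the early and the late members can be set side by side. Each is given 5′ to 3′ on the gene's own strand, and capitals mark a match to ACAAAG, 1 of 3 short SOX-type motifs searched on both strands.
ACAN: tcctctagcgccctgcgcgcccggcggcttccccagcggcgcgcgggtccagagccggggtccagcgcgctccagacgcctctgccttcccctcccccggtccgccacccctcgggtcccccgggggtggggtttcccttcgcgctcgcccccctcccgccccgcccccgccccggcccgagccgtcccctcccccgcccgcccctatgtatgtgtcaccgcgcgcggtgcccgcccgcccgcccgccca
MATN4: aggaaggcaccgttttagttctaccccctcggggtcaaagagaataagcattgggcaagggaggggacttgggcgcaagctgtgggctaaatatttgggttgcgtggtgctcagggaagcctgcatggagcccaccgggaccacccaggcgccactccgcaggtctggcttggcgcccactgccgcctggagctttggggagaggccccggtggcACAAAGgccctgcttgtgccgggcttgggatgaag
MATN1: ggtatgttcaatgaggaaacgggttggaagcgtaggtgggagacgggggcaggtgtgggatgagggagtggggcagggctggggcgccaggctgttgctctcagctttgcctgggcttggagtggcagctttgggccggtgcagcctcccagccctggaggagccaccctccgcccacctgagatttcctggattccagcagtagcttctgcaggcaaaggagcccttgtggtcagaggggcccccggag
EPYC: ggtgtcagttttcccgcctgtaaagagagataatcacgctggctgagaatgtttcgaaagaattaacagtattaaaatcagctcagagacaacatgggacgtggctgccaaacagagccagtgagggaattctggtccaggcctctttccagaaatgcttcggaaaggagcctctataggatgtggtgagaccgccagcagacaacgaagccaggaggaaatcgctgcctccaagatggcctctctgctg
The windows were chr7:54449580-54449829 for ACAN, chr17:47631196-47631445 for MATN4, chr6:87351484-87351733 for MATN1 and chr5:91837422-91837671 for EPYC. Their GC content was 81.2%, 62.8%, 64.4% and 50.4%, so the ACAN window was the richest in G and C of the 4 and the EPYC window the poorest. ACAAAG was found in the MATN4 window alone, at bases 35 to 30 before the start on the gene's strand, and the other motifs, ACAATG and AACAAT, in none of the 8. Among all 19556 protein-coding windows of this length, 12.1% held ACAAAG, 7.29% held ACAATG and 7.07% held AACAAT, and 22.2% held any of them. The match describes these letters in this window and is not a measured binding site.

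After filtering, 74147 cells with 382956742 unique molecular identifiers (UMIs) were kept. A library held 5436 to 10956 cells, 39852689 to 57568895 UMIs and a median of 3405 to 6161 UMIs per cell, and any pair of libraries shared at most 38 cell barcodes. In E16-ZZ 39.2% of barcodes were over the mitochondrial limit of 10%, against 1.05% to 9.15% in the other libraries. Cells were sorted in silico into 3 gates: 9412 COL2A1+ cells with 3 or more UMIs of COL2A1, 4407 PAX1+ cells with a UMI of PAX1 and fewer than 3 of COL2A1, and 60328 other cells. The COL2A1+ gate held 8.01% to 18.3% of a library's cells. A list of 9 chondrocyte markers without any of the 8 genes, of which 8 were in the files, was used to check it. At E21 and E28 all 8 exceeded the other cells by more than 2 times in every library, COL2A1 among them by the choice of the gate. Their summed level, with COL2A1 in it, was 1987 to 6070 in counts-per-million units (CPM). At E16 and E18 only 3 to 5 of the 8 did so. The 8, again with COL2A1, then summed to 733 to 949 CPM, against 156 to 240 CPM in the other cells. The early COL2A1+ cells were therefore not treated as chondrocytes. Epithelium markers summed there to 1066 to 6294 CPM, against 2309 to 8426 CPM in the other cells. Muscle markers summed in COL2A1+ cells to 1742 and 3257 CPM at E16, with MYOD1 and MYOG at 0, against 377 and 569 CPM in the other cells. At E18 they summed to 380 and 183 CPM, against 330 and 260 CPM. In the PAX1+ gate 3 to 6 of 6 sclerotome markers exceeded the other cells by more than 2 times, PAX1 among them by the choice of the gate, and NKX3-2 was at 0 in 7 of the 8 libraries. In the COL2A1+ gate 4 to 5 of them did so at E16 and E18, and 3 to 6 at E21 and E28. COL2A1+ cells could hold PAX1 too, from 62 of 761 in E16-DZ to 693 of 1349 in E21-ZZ. The 2 gates therefore do not separate cells with PAX1 from cells without it. COL2A1+ cells were deeper than the other cells of their library in 7 of 8 libraries (medians of 4216 to 7313 UMIs against 3718 to 6087) and shallower in E28-DZ (3216 against 3489), and the part of this in the results was not tested. At E28, the myotome stage, 718 and 1508 cells fell in the gate of the muscle genes MYOG or MYMK.

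Across whole libraries the genes fell into 3 courses: ACAN and MATN4 were low at E16 and E18 and higher from E21, MATN1 and EPYC were near 0 until E28, and HAPLN1 was high at E16 and lowest at E21. CNMD was low until E21 and highest at E28, and MATN3 and COMP were scarce throughout. These are sums over all cells of a library, given as CPM scaled by the trimmed mean of M-values (TMM) method, and a sum cannot tell more cells of a type from more RNA in each.

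ACAN summed to 1.44 and 1.84 CPM at E16, then 2.12 and 2.23 at E18, 11.4 and 14.04 at E21 and, last, 32.8 and 27.1 at E28. Both E21 libraries lay above all 4 earlier ones, and both E28 libraries above E21. HAPLN1 gave 97.6 and 108 CPM at E16, then 45.1 and 62.8 at E18, 11.3 and 10.0 at E21 and, last, 30.3 and 27.2 at E28. Its groups did not overlap between any stages that follow each other, with the lowest values at E21. MATN4, a matrilin found in cartilage and in other matrices, gave 1.58 and 1.45 CPM at E16, then 1.56 and 3.99 at E18, 155.2 and 164 at E21 and, last, 429 and 292 at E28. E18-DZ stood above the other early libraries, and the lowest late library was far above it.

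MATN1, the matrilin of mature cartilage, was counted as 0 and 3 UMIs at E16, then 4 and 6 at E18, 1 and 7 at E21 and, last, 215 and 558 at E28, which is 4.89 and 11.8 CPM at E28. Before E28 no library held more than 7 UMIs of it. EPYC was counted as 5 and 7 UMIs at E16, then 2 and 7 at E18, 5 and 7 at E21 and, last, 867 and 788 at E28, or 19.7 and 16.7 CPM at E28, again with at most 7 UMIs in each earlier library. CNMD summed to 0.431 and 0.619 CPM at E16, then 0.530 and 1.95 at E18, 2.17 and 2.86 at E21 and, last, 6.62 and 10.1 at E28, and E18-DZ lay closer to E21 than to E18-ZZ. MATN3 had 12 and 17 UMIs at E16, then 8 and 16 at E18, 12 and 26 at E21 and, last, 26 and 49 at E28, and in CPM E16 lay above E18, while E18 and E21 overlapped. COMP had 4 UMIs in each E16 library and 1 each in E21-ZZ and E28-DZ, and was not detected in the others, where 3 counts would be 0.0521 to 0.0697 CPM. It passed no filter on low counts and no difference could be tested. Levels in CPM are not compared between genes here.

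**Figure D1:**
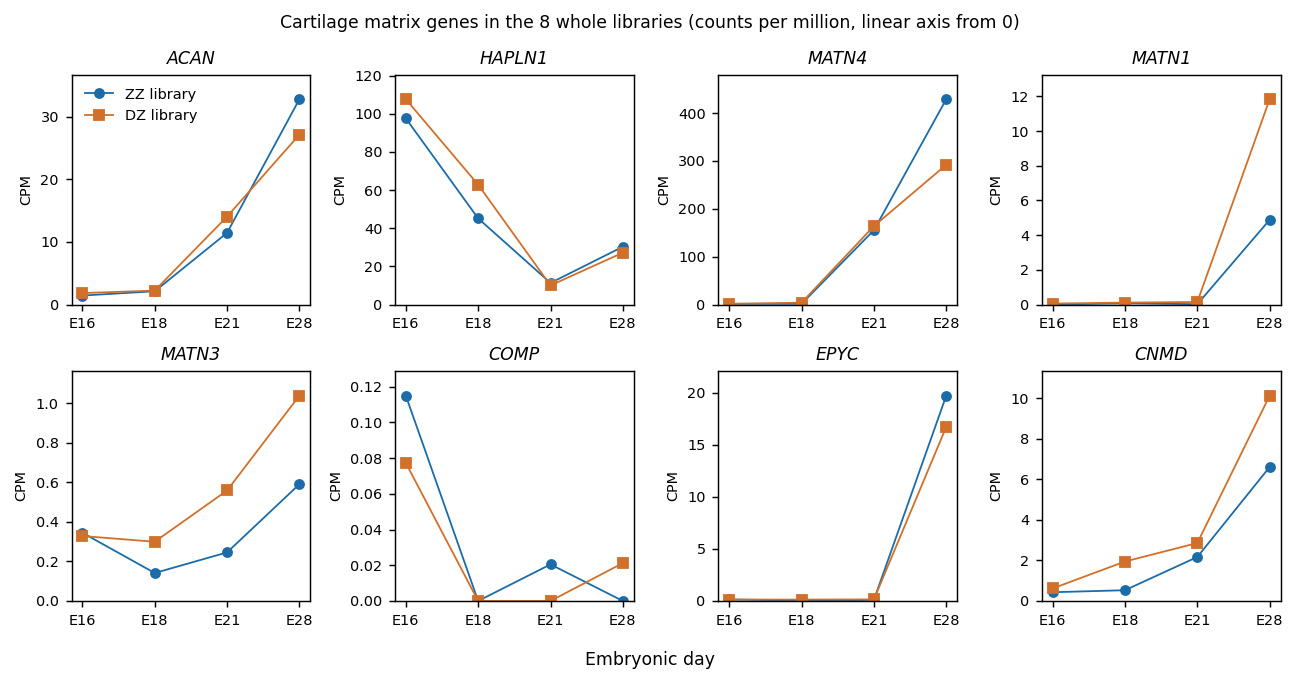
Level of each of the 8 genes (CPM, linear axes from 0 with a scale of their own) in the 8 libraries by embryonic day, with 1 point per library, ZZ and DZ marked apart. ACAN and MATN4 step up between E18 and E21, HAPLN1 is lowest at E21, and MATN1 and EPYC are near 0 before E28.

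Stages were compared with edgeR's quasi-likelihood test on the summed counts, with breed in the model and Benjamini-Hochberg adjustment over 15119 genes, and 7 of the 8 genes entered it. Differences are log2 values, and a gene was called at an adjusted p under 0.05. The SE is the size of a difference divided by the square root of the test's F statistic. It is thus taken from the test, and can be smaller than counting error for genes of few UMIs. Between E16 and E18, HAPLN1 was the only member called, lower at E18 with a difference of −0.93 ± 0.17 (SE, adjusted p = 0.0383), where 4.7% of all genes were called. The call was lost without any 1 of the 4 libraries (−0.70 to −1.21) and at a mitochondrial limit of 5% (−1.26), with adjusted p 0.000109 to 0.191 over its alternatives. From E18 to E21, MATN4 rose by 5.87 ± 0.44 (SE, adjusted p = 0.00128) and ACAN by 2.55 ± 0.21 (SE, adjusted p = 0.00152), while HAPLN1 fell, with −2.33 ± 0.18 (SE, adjusted p = 0.00135). These were 3 of the 7 tested, against 21.2% of all genes. Without E18-ZZ the MATN4 difference was 5.22 and without E18-DZ 6.76, and all 3 calls remained. CNMD, at 1.19 (adjusted p = 0.0776), and MATN3, at 0.85 (adjusted p = 0.275), did not pass.

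From E21 to E28 the call covered 5 of the 7 tested, all higher, against 8.53% of all genes. EPYC differed by 7.16 ± 0.46 (SE, adjusted p = 0.00280) and MATN1 by 6.66 ± 0.56 (SE, adjusted p = 0.00348). Both sizes rest on the few UMIs at E21, 5 and 7 for EPYC and 1 and 7 for MATN1, and the MATN1 difference was 7.74 without E21-DZ. With at most 7 UMIs before E28, both genes passed the filter on low counts only through E28, where they are high, so nothing is read from the count of 5 against all genes. HAPLN1 rose again, by 1.43 ± 0.18 (SE, adjusted p = 0.00977), ACAN by 1.24 ± 0.19 (SE, adjusted p = 0.0159) and CNMD by 1.71 ± 0.39 (SE, adjusted p = 0.0434). The ACAN call was lost without E21-ZZ (1.10) or E28-ZZ (0.99; adjusted p 5.55e-06 to 0.0832 over the alternatives). The CNMD call was lost without either E16, E21 or E28 library (1.42 to 2.03; adjusted p 0.00133 to 0.165). MATN4, at 1.19 (adjusted p = 0.0888), did not pass, and it did with DESeq2 or without either E18 library (adjusted p 0.00920 to 0.327). The mean of E21 and E28 was then set against that of E16 and E18. All 7 tested were called, where 51.9% of all genes were, and nothing is read from this count, since MATN1 and EPYC entered the test only through E28. Of the 7, 6 were higher, from 6.89 ± 0.33 (SE, adjusted p = 3.66e-05) for MATN4 to 1.03 ± 0.36 (SE, adjusted p = 0.0461) for MATN3, and HAPLN1 was lower, at −2.08 ± 0.13 (SE, adjusted p = 7.64e-05). In COL2A1+ cells alone HAPLN1 was at −0.45 (adjusted p = 0.100) in this contrast and was not called. The MATN3 call was lost in 13 of 16 alternatives (0.52 to 1.65), among them leaving out any library but E16-ZZ. MATN1 differed by 5.31 without E16-DZ and by 3.13 without both E16 libraries, against 3.89 (adjusted p = 0.00112) with all libraries. Without both E28 libraries MATN1 and EPYC were too scarce to test, MATN3 lost its call, and 4 calls were left. ACAN then differed by 2.75, CNMD by 1.76 and HAPLN1 by −2.78, against 3.37 (adjusted p = 3.09e-05) for ACAN and 2.60 (adjusted p = 0.000641) for CNMD with them.

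To compare shares of cells across depths, each cell was thinned to 1500 UMIs, and 3423 shallower cells were left out. Late stands for E21 and E28 and early for E16 and E18. MATN4 was found in 14.3% ± 4.47 late and 0.333% ± 0.208 early (SD over 4 libraries each), ACAN in 2.25% ± 0.740 late and 0.297% ± 0.0907 early, and CNMD in 0.866% ± 0.637 late and 0.139% ± 0.0990 early. For HAPLN1 the order was the opposite, with 2.09% ± 0.962 late and 6.29% ± 2.31 early. In these 4 genes the 4 late and 4 early libraries did not overlap, and the exact two-sided permutation test over 70 splits gave p = 0.0286, the smallest it can give. This is unadjusted, and with an adjustment over the 8 genes tested none of the 4 would pass 0.05. How many of all genes separate late from early libraries in this way was not computed. As 51.9% of all genes were called late against early in whole libraries, nothing is read from the count of 4. At a mitochondrial limit of 5% the late minus early difference of HAPLN1 was −1.78 percentage points with p = 0.114 (exact), and it was −4.20 at the limit of 10%. MATN1 (p = 0.257, exact), MATN3 and EPYC (both p = 0.286, exact) and COMP (p = 1, exact) had overlapping libraries. With 1 library left out no gene can go below 0.0571 in this test.

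The gates showed where the transcripts lay. From E21 on, ACAN and MATN4 were highest in COL2A1+ cells, MATN4 was also plentiful in PAX1+ cells, and HAPLN1 was spread over COL2A1+ and other cells until E28. In COL2A1+ cells ACAN gave 4.96 and 4.17 CPM at E16, then 7.29 and 5.14 at E18, 77.5 and 67.0 at E21 and, last, 174 and 259 at E28. In PAX1+ cells it stayed between 1.02 and 10.8 CPM and in the other cells between 0.824 and 2.04 CPM, so from E21 on the COL2A1+ values lay above both in every library. By share, the COL2A1+ gate held 28.4% to 56.7% of the ACAN UMIs at E16 and E18 and 91.2% to 95.1% later. MATN4 gave 3.50 and 2.62 CPM at E16, then 4.503 and 12.3 at E18, 933 and 698 at E21 and, last, 1903 and 2106 at E28 in COL2A1+ cells. Its PAX1+ values were 3.64 and 2.04 CPM at E16, then 2.63 and 0.510 at E18, 160.0 and 188 at E21 and, last, 640.1 and 559 at E28, below COL2A1+ and above the other cells in all 4 late libraries. In the other cells it reached 21.95 and 27.8 CPM at E21 and 76.5 and 72.6 CPM at E28.

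HAPLN1 in COL2A1+ cells gave 117 and 96.6 CPM at E16, then 43.5 and 35.0 at E18, 14.4 and 11.08 at E21 and, last, 125 and 224 at E28. The other cells had 97.6 and 111 CPM at E16, then 46.7 and 73.2 at E18, 11.7 and 10.5 at E21 and, last, 9.91 and 5.89 at E28, so both gates were alike at E16 and only COL2A1+ cells were high at E28. Of all HAPLN1 UMIs, 10.8% to 15.9% were in COL2A1+ cells at E16 and E18, 17.2% and 21.2% at E21, but 74.0% and 78.9% at E28. The late members were nearly confined to the gate by count: at E28 it held 96.8% and 96.8% of EPYC UMIs, 96.3% and 97.0% of MATN1 UMIs, and 89.7% and 86.6% of CNMD UMIs, in 16.8% and 10.6% of the cells. MATN3 had 16 and 41 UMIs there at E28, of 26 and 49 in all.

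**Figure D2:**
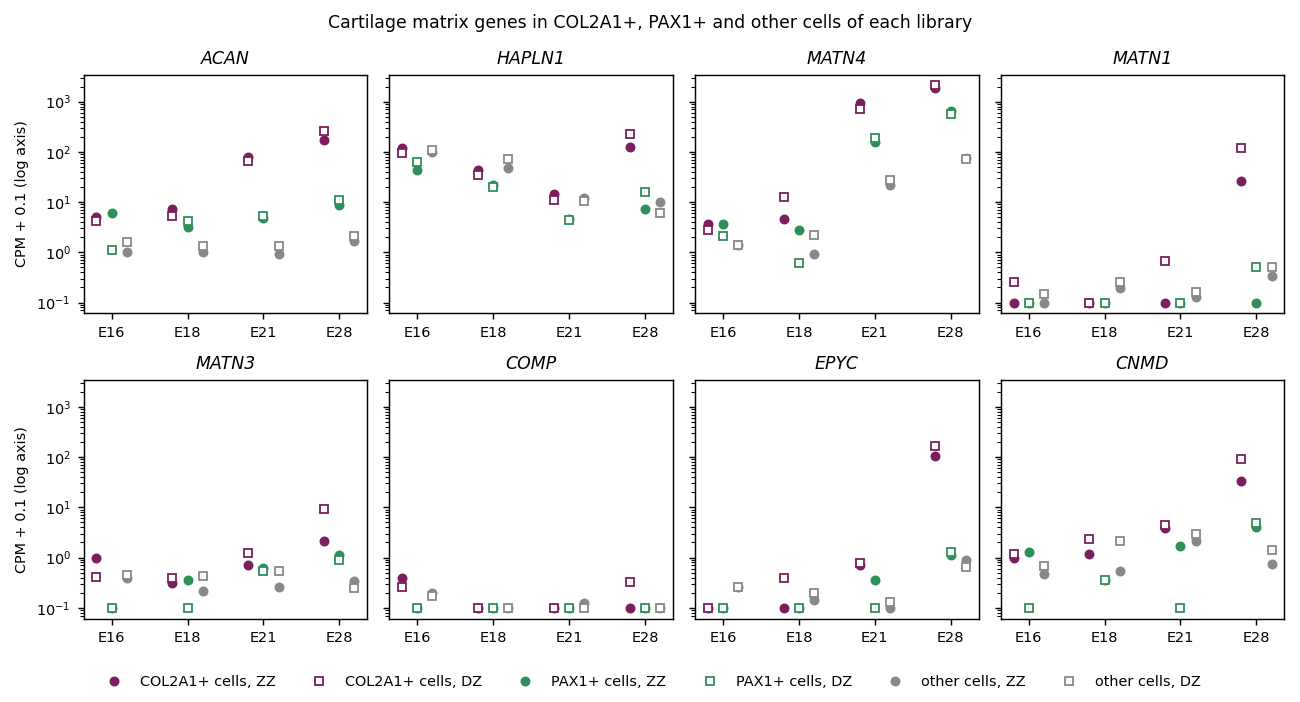
Level of each gene (CPM plus 0.1, log axis) in COL2A1+, PAX1+ and other cells of each library, by embryonic day. ACAN and MATN4 separate the COL2A1+ cells from the rest from E21, for MATN4 with the PAX1+ cells between, and MATN1, EPYC, CNMD and HAPLN1 do so at E28.

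The gates were compared with library as a block, over 12068 genes, in which ACAN, MATN4, CNMD and HAPLN1 could be tested and the 4 others were too scarce. COL2A1+ cells exceeded the other cells in ACAN by 4.85 ± 0.61 (SE, adjusted p = 3.92e-05), in MATN4 by 3.97 ± 0.42 (SE, adjusted p = 6.25e-06) and in CNMD by 2.17 ± 0.66 (SE, adjusted p = 0.0323), which is 3 of 4 against 15.8% of all genes. CNMD passed the filter on low counts only with its COL2A1+ sums, where it is high, so nothing is read from the count of 3. HAPLN1 was at 0.91 (adjusted p = 0.267), and passed at a mitochondrial limit of 5% (1.71) or a COL2A1 limit of 10 UMIs (2.28; adjusted p 0.0182 to 0.884). The CNMD call was lost without E18-ZZ (2.28), E28-ZZ (1.59) or E28-DZ (1.42; adjusted p 0.00193 to 0.104). In PAX1+ against other cells MATN4 passed, at 2.25 ± 0.45 (SE, adjusted p = 0.00203), which is 1 of 4 members and near the 18.6% of all genes. The MATN4 call was lost without the library block (2.94; adjusted p 0.000200 to 0.386 over the alternatives), while ACAN was at 1.64 (adjusted p = 0.189). COL2A1+ cells exceeded PAX1+ cells in ACAN by 3.21 ± 0.68 (SE, adjusted p = 0.0190) and in MATN4 by 1.72 ± 0.39 (SE, adjusted p = 0.0261), where 1.97% of all genes were called. Both of these were lost without the library block and without any 1 of the 4 late libraries (ACAN 2.81 to 3.11, MATN4 1.54 to 1.81), with adjusted p 4.8e-06 to 0.106 for ACAN and adjusted p 0.000289 to 1.000 for MATN4 over the alternatives.

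Whether the gap between COL2A1+ and other cells differed between late and early stages was tested as an interaction over 13156 genes. For ACAN it was 2.22 (adjusted p = 0.00161) early and 6.56 (adjusted p = 3.62e-07) late, so the gap was wider late by 4.34 ± 0.35 (SE, adjusted p = 0.000356). For MATN4 it was 2.06 (adjusted p = 0.00221) and 4.88 (adjusted p = 3.62e-07), wider by 2.82 ± 0.31 (SE, adjusted p = 0.00114). HAPLN1 had −0.28 (adjusted p = 0.833) and 2.53 (adjusted p = 0.0410), with a change of 2.81 (adjusted p = 0.0941). CNMD had 0.69 (adjusted p = 0.783) and 3.45 (adjusted p = 0.0232), with a change of 2.76 (adjusted p = 0.248). Thus 2 of 4 members were called early, 4 of 4 late and 2 of 4 in the change, against 8.53%, 26.5% and 14.8% of all genes. Nothing is read from these counts, since CNMD entered this test too only with its COL2A1+ sums. Without both E28 libraries the late gap was 0.21 for HAPLN1 and 0.77 for CNMD and neither passed. Leaving out either E28 library alone also lost both late calls (HAPLN1 2.002 without E28-ZZ and 1.56 without E28-DZ, CNMD 2.61 and 2.30), and leaving out either E16 or E18 library lost that of HAPLN1 (2.50 to 2.53), with adjusted p 0.0184 to 0.692 for HAPLN1 and adjusted p 0.00890 to 0.102 for CNMD. Without E21-ZZ or E21-DZ the late gaps were 3.25 and 3.29 for HAPLN1 and 4.30 and 4.48 for CNMD, and the change of HAPLN1 then passed (3.54 and 3.56; adjusted p 0.0439 to 0.414).

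Within COL2A1+ cells the same stages stood apart. CNMD there gave 0.875 and 1.08 CPM at E16, then 1.07 and 2.23 at E18, 3.80 and 4.25 at E21 and, last, 33.0 and 91.6 at E28. EPYC gave 0.608 and 0.672 CPM at E21 and 106 and 169 CPM at E28, and MATN1 0 and 0.560 CPM at E21 and 26.2 and 119.7 CPM at E28. The stages were tested over 12505 genes. From E16 to E18 HAPLN1 was lower, at −1.42 ± 0.27 (SE, adjusted p = 0.0258), as 1 of 7 members against 4.36% of all genes. It was lost without either E16 library or either E18 library (−1.21 to −1.65) and at COL2A1 limits of 10 UMIs (−0.80) and 10 per 10000 UMIs (−1.23; adjusted p 0.000140 to 0.607 over the alternatives). From E18 to E21 MATN4 rose by 6.63 ± 0.41 (SE, adjusted p = 5.68e-05) and ACAN by 3.55 ± 0.26 (SE, adjusted p = 0.000115), and HAPLN1 fell, with −1.63 ± 0.30 (SE, adjusted p = 0.0103). These were 3 of 7, against 12.3%. The HAPLN1 call was lost without E18-ZZ (−1.39), without E21-DZ (−1.40) at a mitochondrial limit of 5% (−0.89) and at a COL2A1 limit of 10 per 10000 UMIs (−1.25; adjusted p 7.36e-06 to 0.0974). MATN4 differed by 5.96 without E18-ZZ and by 7.57 without E18-DZ. CNMD, at 1.31 (adjusted p = 0.0592), did not pass.

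From E21 to E28, 6 of 7 members rose in COL2A1+ cells, against 7.29% of all genes. MATN1 rose by 7.91 ± 0.37 (SE, adjusted p = 0.000115) and EPYC by 7.74 ± 0.30 (SE, adjusted p = 5.26e-05), from 0 and 5 UMIs of MATN1 and 4 and 6 of EPYC at E21. Here too MATN1 and EPYC passed the filter only through E28, and nothing is read from the count of 6 against all genes. CNMD rose by 3.85 ± 0.30 (SE, adjusted p = 0.000475) and HAPLN1 by 3.78 ± 0.31 (SE, adjusted p = 0.000552). The steps of ACAN, 1.58 ± 0.21 (SE, adjusted p = 0.00482), and MATN4, 1.28 ± 0.31 (SE, adjusted p = 0.0422), were smaller. MATN3, the matrilin of growth cartilage, was at 2.50 (adjusted p = 0.0631) and did not pass. The MATN4 call was lost with DESeq2 (1.28) and without any library of E16 or E28 or E21-DZ (0.87 to 1.30; adjusted p 0.00240 to 0.244), and that of ACAN without E21-DZ (1.40; adjusted p 2.08e-07 to 0.0503). MATN1 differed by 10.51 without E21-DZ and 9.38 without E28-DZ, CNMD by 3.20 without E21-DZ, and HAPLN1 by 3.14 without E28-DZ. Other cell types' markers moved with these stages in the same gate: connective tissue markers summed to 298 to 1495 CPM early and 1997 to 5181 CPM late, and epithelium markers to 1066 to 6294 CPM early and 3.76 to 239.9 CPM late. Their part in the results was not tested.

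The mean of E21 and E28 was set against that of E16 and E18 within COL2A1+ cells too. Of 7 members 6 were higher, where 43.0% of all genes were called, and nothing is read from this count, since MATN1, MATN3 and EPYC entered the test only through E28. Among the alternatives, the MATN3 call (2.50) was lost without E16-DZ (1.65) or E28-DZ (1.89). The MATN1 call (6.88) was lost without E21-DZ (5.53). HAPLN1 did not pass, and its value turned on the gate: it was −1.19 and called at a COL2A1 limit of 1 UMI, and 0.18 and not called at a limit of 10 UMIs. It was also called without a filter on low counts (−0.45), with no doublets removed (−0.55) and without E28-DZ (−0.76; adjusted p 5.53e-05 to 0.758 over the alternatives).

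**Figure D3:**
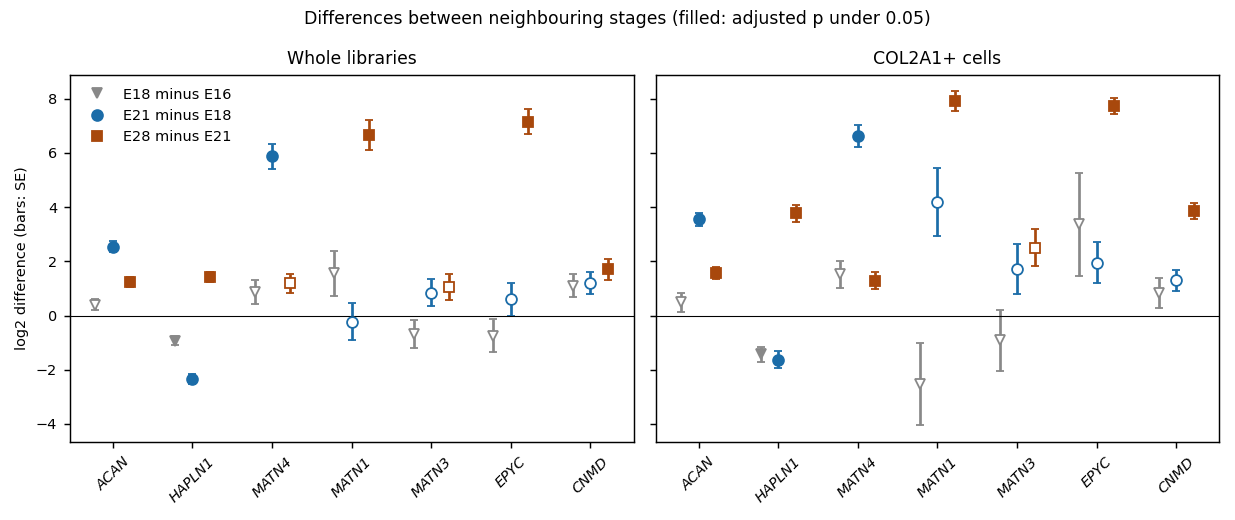
Log2 differences between neighbouring stages, with the SE taken from the test's F statistic, for each of the 7 genes tested. Whole libraries are on the left and COL2A1+ cells on the right, with filled markers at an adjusted p under 0.05. The largest filled values are MATN4 for E21 minus E18 and EPYC and MATN1 for E28 minus E21, and HAPLN1 is below 0 up to E21 and above 0 at E28.

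The stages were also compared within PAX1+ cells. In this gate 3 members could be tested, over 10543 genes. From E16 to E18 HAPLN1 was lower, at −1.30 ± 0.28 (SE, adjusted p = 0.0455), as 1 of 3 where 1.01% of all genes were called, and the call was lost without either E16 library, E18-DZ or E21-DZ (−0.91 to −1.43; adjusted p 0.0167 to 0.647 over the alternatives). From E18 to E21 MATN4 rose by 6.76 ± 0.31 (SE, adjusted p = 8.93e-08) and HAPLN1 fell, with −2.24 ± 0.33 (SE, adjusted p = 0.000682), which is 2 of 3 where 17.0% of all genes were called, while ACAN was at 0.43 (adjusted p = 0.611). From E21 to E28 MATN4 rose by 1.80 ± 0.19 (SE, adjusted p = 0.000145), as 1 of 3 where 7.32% were called. Late against early, HAPLN1 was lower, at −2.21 ± 0.23 (SE, adjusted p = 9.53e-06), and MATN4 higher, at 7.25 ± 0.24 (SE, adjusted p = 5.69e-10), as 2 of 3 where 41.7% were called. With at most 10 UMIs in each E16 and E18 library, MATN4 passed the filter on low counts in this gate only through the late libraries, so nothing is read from these counts. In the same gate the summed connective tissue markers were at 699 to 1994 CPM at E16 and E18 and 2936 to 6562 CPM at E21 and E28, epithelium markers at 418 to 2865 and then 1.998 to 29.7 CPM, and neuron markers at 1.21 to 21.7 and then 107 to 512 CPM. Their part in these differences was not tested. HAPLN1, at 1.35 (adjusted p = 0.0521), missed the threshold and passed without E28-ZZ (1.75; adjusted p 0.0230 to 0.550). Without E18-ZZ the E18 to E21 step of MATN4 was 8.25, and its late against early difference 7.99. Without E18-DZ that step was 6.01. By share of thinned PAX1+ cells, MATN4 was found in 0.676 and 0.461% at E16, then 0.168 and 0.127 at E18, 14.4 and 18.9 at E21 and, last, 37.2 and 33.0 at E28. Shares in other gates are given beside these. Whether those cells lack MATN4 was not tested, so their shares do not measure the free RNA of the droplets. Over the muscle, endothelial, erythroid, neuron and SOX10+ gates, MATN4 was found in at most 5.56% and 3.13% of thinned cells at E21, both in endothelial cells, and in at most 4.78% and 3.79% at E28, both in neurons. These gates had median depths of 3417 to 12227 UMIs, against 2757 to 4602 in PAX1+ cells, and the PAX1+ shares lay above these values in all 4 libraries.

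Splitting the cells into 16 gates that exclude each other showed HAPLN1 outside the COL2A1+ cells. All but 1 were named by 1 or 2 marker genes. The last took the cells that met none of these, 40.4% to 49.8% of a library at E16 and E18. Values here are CPM of a gate's own total, without TMM scaling, and gates with fewer than 20 cells in a library were left out. In cells with a UMI of the endothelial genes CDH5 or PECAM1, HAPLN1 reached 312 and 402 CPM at E16, then 384 and 496 at E18, 244 and 125 at E21 and, last, 51.4 and 36.0 at E28. It was the highest gate for HAPLN1 in all 6 libraries from E16 to E21. At E16 and E18 these cells were 2.67% to 9.36% of a library and held 36.9% to 50.1% of its HAPLN1 UMIs, and at E28 2.78% and 1.25%. SOX10+ cells, the gate of neural crest and its glial precursors, came next in those 6 libraries and held 201 and 211 CPM at E16, then 173 and 167.5 at E18, 25.2 and 24.3 at E21 and, last, 43.3 and 36.7 at E28. Young neurons (STMN2+ or ELAVL3+) held 139 and 122 CPM at E16, then 138 and 128 at E18, 6.44 and 6.46 at E21 and, last, 8.38 and 4.95 at E28. At E28 COL2A1+ cells were the highest gate instead, with 121 and 238 CPM. By share of thinned cells, HAPLN1 was found in 26.7% and 37.8% of CDH5+ or PECAM1+ cells at E16, 27.8% and 9.38% at E21, and 7.69% and 1.61% at E28. In erythroid (ALAS2+) cells the share was 3.41% and 1.31% at E16. From E21 on no erythroid cell of 48, 55, 48 and 64 held HAPLN1. Median depths at E16 were 8434 and 8796 UMIs in erythroid cells against 9550 and 6800 in the endothelial gate. The part of free RNA in these shares was not tested. In the endothelial gate ACAN, MATN1 and EPYC had at most 2.25 CPM in any library.

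CNMD too was counted outside the COL2A1+ cells. SOX10+ cells were its highest gate in both E16 and both E18 libraries and in E21-DZ, with 3.95 and 5.07 CPM at E16, then 5.04 and 12.8 at E18, 6.43 and 16.5 at E21 and, last, 3.09 and 13.6 at E28. The 46 UMIs in E18-DZ were 44.2% of the CNMD UMIs of that library. At E16, in E18-ZZ and in E28-ZZ these values rest on 3, 6, 9 and 2 UMIs. CNMD was in 1.70% of the thinned SOX10+ cells of E18-DZ, which is 9 cells, and in 0.809% of its neurons, at median depths of 6145 and 4515 UMIs. In the other libraries at most 4 thinned SOX10+ cells held it. In E21-ZZ the highest gate was PAX3+, with 10.1 CPM, and at E28 it was COL2A1+, with 32.1 and 97.4. MATN4 was also counted in connective tissue gates of the late libraries, below COL2A1+ cells. In the LUM+ gate it was low, at 6.37 to 42.3 CPM at E21 and 14.9 to 69.6 CPM at E28. In MYOG+ or MYMK+ cells it was at 8.04 to 15.3 CPM at E28. TNMD+ cells, a gate named for the tendon gene tenomodulin, held 244 and 148.5 CPM at E21 and 192 and 476 CPM at E28, while PAX1+ cells counted in the same way held 170.3 and 183.9 CPM at E21 and 679 and 640.2 CPM at E28, and OGN+ cells held 44.5 and 82.7 CPM at E21 and 152 and 186 CPM at E28. At E28 MATN4 was found in 13.3% and 29.5% of thinned TNMD+ cells, above the 4.78% and 3.79% of neurons. MATN1 outside COL2A1+ cells was seen in erythroid (ALAS2+) cells as 1 to 4 UMIs in each library from E18 on, too few to read.

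**Figure D4:**
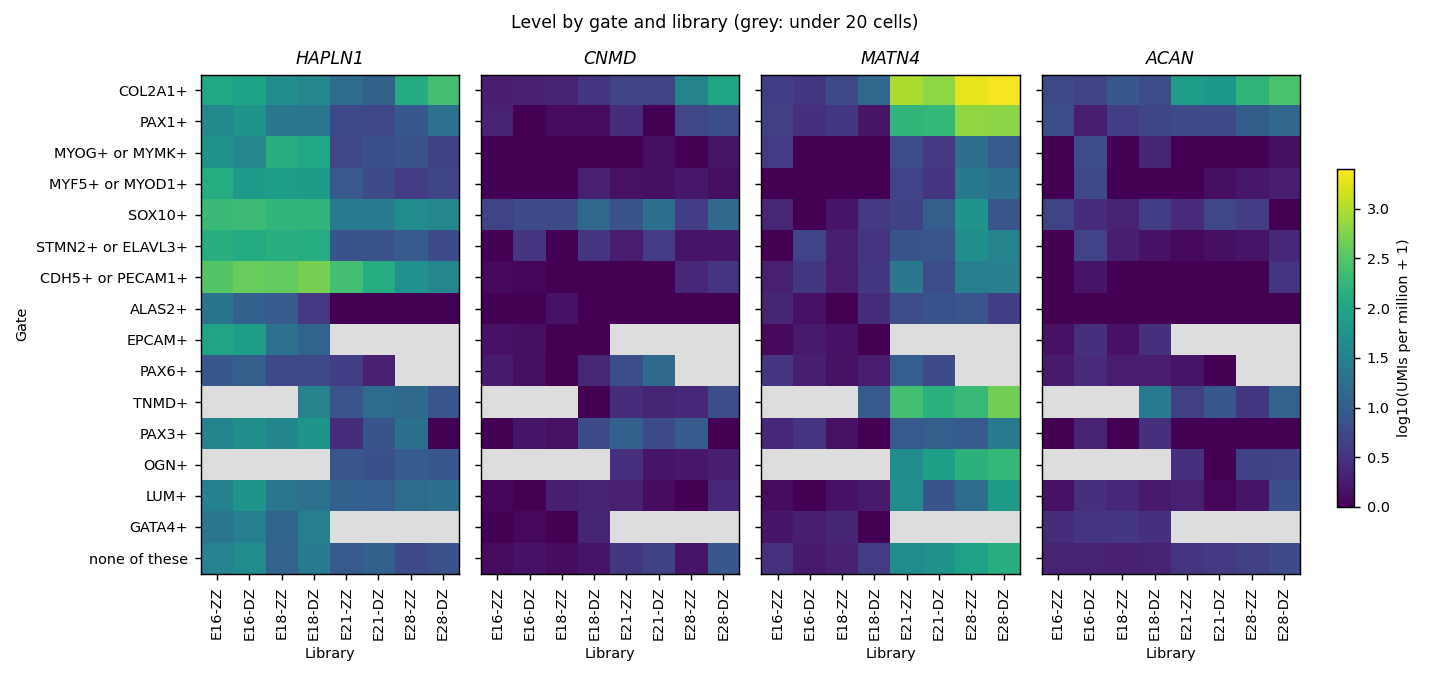
Heat maps of HAPLN1, CNMD, MATN4 and ACAN by gate (rows) and library (columns), coloured by log10 of CPM plus 1, with grey for gates of fewer than 20 cells. HAPLN1 is brightest in the CDH5+ or PECAM1+ gate up to E21, and at E28 all 4 genes are brightest in COL2A1+ cells.

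Cells with more COL2A1 held more members, and the members differed in the COL2A1 count at which they were common. Cells were thinned to 1500 UMIs and binned by their COL2A1 UMIs, and intervals are exact binomial ones of 95%, which cover counting error only. At 5 to 9 COL2A1 UMIs (115 and 90 cells at E21, 202 and 193 at E28), MATN4 was found in 93.0% and 84.4% of cells at E21 and 95.05% and 96.9% at E28. ACAN was in 23.5% and 28.9% at E21 and 40.6% and 33.2% at E28. The ACAN intervals were 16.1% to 32.3% at E21 and 33.8% to 47.7% at E28 in ZZ, and 19.8% to 39.4% and 26.6% to 40.3% in DZ. HAPLN1 went from 4.35% and 3.33% to 32.2% and 29.0% at the same COL2A1 count. EPYC was in 0 of 115 and 0 of 90 such cells at E21, which allows detection at this depth in up to 3.16% and 4.02%, and in 30.2% and 15.5% at E28. MATN1 had the same zeros at E21 and 6.93% and 12.4% at E28, and CNMD was in 0.870% and 2.22% and then 12.9% and 22.8%. The E28 shares were above the E21 shares at like COL2A1 counts for all 6 of these genes in both breeds. How many of all genes do the same was not computed, and EPYC and MATN1 were scarce before E28, so nothing is read from the count of 6. These shares are a description, with no test between libraries.

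At E28 the shares climbed further with COL2A1. With 10 to 19 COL2A1 UMIs (72 and 127 cells), ACAN was in 81.9% and 72.4% of cells, HAPLN1 in 62.5% and 64.6%, and EPYC in 58.3% and 54.3%. MATN1 was in 25% and 45.7%, and CNMD in 23.6% and 40.2%, the lowest shares of the 6 in both libraries. With 20 or more, held by 36 cells of E28-DZ, ACAN was in 97.2%, HAPLN1 in 86.1%, EPYC and MATN1 each in 83.3%, and CNMD in 58.3%. Among all COL2A1+ cells, 9.74% and 8.74% held 2 or more of the 8 genes at E21 and 24.8% and 34.6% at E28, and 4 or more were held by no cell at E21 and by 5.39% and 13.8% at E28.

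At E16 and E18 ACAN was found in 0.385% to 1.08% of the HAPLN1 cells of a library, which is 2 to 4 cells, and in 0.141% to 0.392% of its cells without HAPLN1, too few to read. At E28, 44 and 126 thinned cells held MATN1, and of these 93.2% and 93.7% also held MATN4, 68.2% and 75.4% ACAN, and 61.4% and 56.3% EPYC. Of the cells without MATN1, 2.57% and 2.03% held ACAN. Of the 279 and 308 cells with ACAN, a larger base than the MATN1 cells, 10.8% and 30.8% held MATN1, and 33.7% and 34.7% held EPYC. HAPLN1 was in 4.52% and 1.28% of ACAN cells at E21 and in 36.9% and 44.5% at E28. MATN4 was in 80.6% and 81.4% of ACAN cells at E21, but ACAN in only 12.2% and 11.9% of the 1022 and 1064 cells with MATN4. Cells of a library share its depth and dissociation, so these shares describe the libraries.

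**Figure D5:**
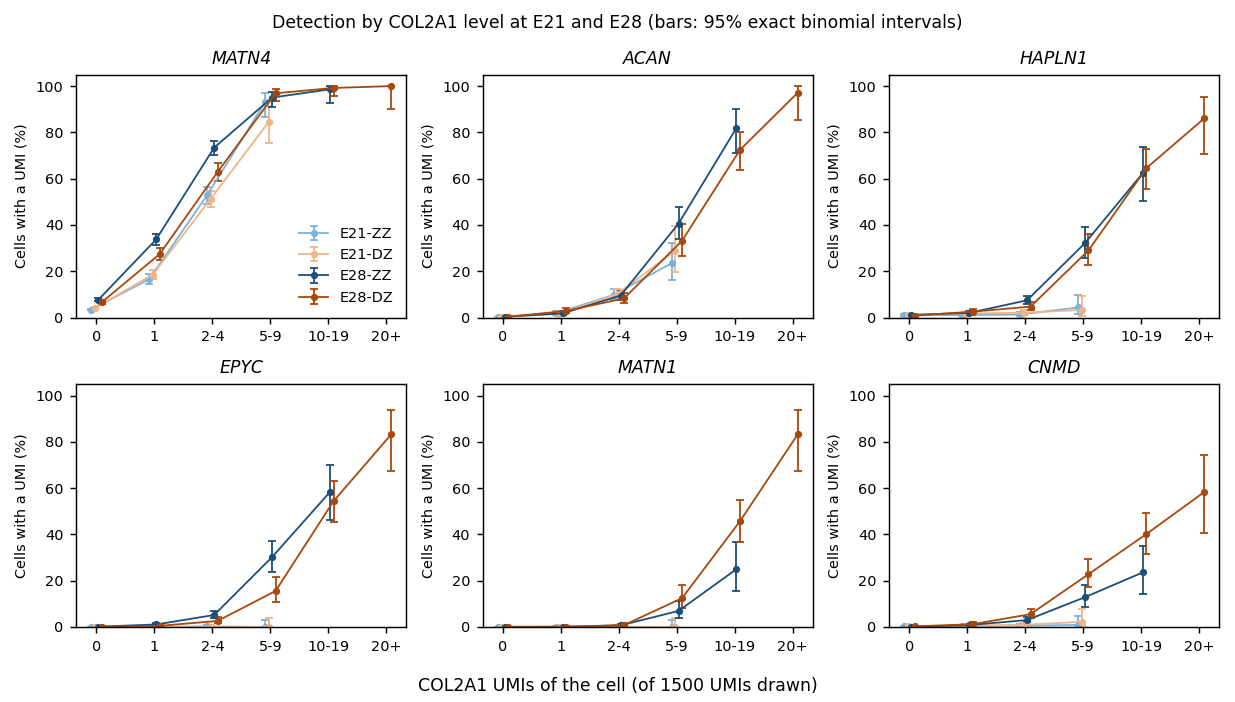
Share of cells thinned to 1500 UMIs (%) with a UMI of each gene, by the cell's COL2A1 UMIs, at E21 and E28 in ZZ and DZ, with exact 95% binomial intervals. MATN4 is near its ceiling from 5 COL2A1 UMIs at both stages, while EPYC, MATN1, CNMD and HAPLN1 climb with COL2A1 at E28 and stay low at E21.

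Breeds were compared with stage in the model, 4 libraries each. No member was called, in whole libraries or within COL2A1+ cells, and neither was any gene by edgeR (0.0% of 15119 and 0.0% of 12505), with 918 and 881 genes at an unadjusted p under 0.05. DESeq2 called 57 and 9 genes. MATN1 had the largest difference among the members within COL2A1+ cells, 2.24 ± 0.28 (SE, adjusted p = 0.189) for DZ minus ZZ, which was called by DESeq2 (2.21), without a filter on low counts (2.23) and at a COL2A1 limit of 10 UMIs (2.24; adjusted p 0.00134 to 0.678 over the alternatives). It rests on E28, with 26.2 and 119.7 CPM. CNMD was at 1.02 (adjusted p = 0.588) and ACAN at 0.03 (adjusted p = 0.985).

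Other genes of the matrix were read from 7 lists. They are given within COL2A1+ cells, where the median difference of all genes was 0.014 from E18 to E21 and −0.0098 from E21 to E28. Genes scarce at E16 and E18 could pass the filter on low counts only through the later stages. Which listed genes did so was not checked, and nothing is read from the counts of genes that rose. Of the 5 cartilage collagen genes tested, all rose at both steps, with medians of 1.64 and 1.95. COL9A3, a chain of the collagen IX that coats cartilage fibrils, rose by 5.66 ± 0.29 (SE, adjusted p = 2.81e-05) and then 3.32 ± 0.16 (SE, adjusted p = 5.26e-05). COL11A2, a chain of the collagen XI at their core, rose by 2.71 (adjusted p = 0.000160) and 2.93 (adjusted p = 0.000190). Of 13 chondrogenic regulators 6 rose and 2 fell at the first step and 8 rose at the other, where 12.3% and 7.29% of all genes were called in either direction. SOX9, the master regulator of the lineage, rose by 1.66 (adjusted p = 0.000635) at the first and was at 0.60 (adjusted p = 0.0628) at the other, while RUNX2, known for bone and hypertrophic cartilage, rose by 3.68 (adjusted p = 0.00163) and 3.54 (adjusted p = 0.000475). Of 11 other cartilage matrix genes 7 and then 5 rose, among them SNORC, a small proteoglycan of chondrocytes, by 4.44 (adjusted p = 0.0252) and 3.55 (adjusted p = 0.0249).

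Aggrecan is finished by the enzymes that build and sulphate its chains. Of 14 such genes tested 6 rose from E18 to E21 and 2 from E21 to E28, with median differences of 0.41 at both steps. Of all genes 12.3% and 7.29% were called at these steps in either direction, and the counts of 2 of 14 here and of the hyaluronan genes lie near those shares. PAPSS2, which makes the sulphate donor, rose by 2.45 (adjusted p = 0.00249) and 3.401 (adjusted p = 0.000239), and the chondroitin sulphotransferase gene CHST11 by 1.89 (adjusted p = 0.00302) at the first step. Of 6 hyaluronan genes 1 rose at the first step and none at the other. Among 11 aggrecanases and matrix proteases or their inhibitors, 2 rose and 1 fell and then 3 rose, with TIMP1 at 0.57 (adjusted p = 0.0430) and 0.63 (adjusted p = 0.0423). Between COL2A1+ and other cells over all libraries, 1 of these 11 was higher and 3 were lower, where 15.8% of all genes were called. At E16 and E18 alone none was higher and 3 were lower (8.53% of all genes called), and at E21 and E28 alone 4 were higher and 2 lower (26.5%). Of the lower ones at E21 and E28, the aggrecanase gene ADAMTS5 was at −1.58 (adjusted p = 0.00127), while ADAMTS4 was at −0.84 (adjusted p = 0.0747) and did not pass. Of 12 tested relatives of the 8 genes, 5 rose and 2 fell and then 5 rose. VCAN, the proteoglycan most like aggrecan in young mesenchyme, differed between COL2A1+ and other cells, at 0.81 (adjusted p = 0.000135), beside the 4.85 of ACAN, and the gap between the genes was not tested. MATN2 rose at the step to E28, by 1.61 (adjusted p = 0.00377), and was at 0.30 (adjusted p = 0.404) before. HAPLN3 fell from E18 to E21, with −0.91 (adjusted p = 0.0237).

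Likeness was measured as Pearson's r over 111 sums of library and gate, on log2 of CPM plus 1, among 9736 genes outside the members. It is a description, since sums of 1 library share their depth and cells, and since COL2A1 and OGN define gates, their r is partly fixed by the gating. For ACAN the genes most alike were WWP2 (r = 0.754), COL2A1 (0.721), COL11A1 (0.694), SNORC (0.692) and COL9A1 (0.679). MATN4 had another set, led by the gene ENSSSCG00000035760, which the reference names RFLNA (r = 0.898), with GAS2 (0.857), NFIX (0.839), OGN (0.837) and TGFB3 (0.828). Among genes outside the members, EPYC was most like SNORC (0.758) and ECRG4 (0.677). CNMD was closest to ENSSSCG00000002997, named MIA in the reference (r = 0.703), COL9A3 (0.641) and SOX5 (0.633), and the neural crest gene CDH19 was also among its 5 closest (0.620). HAPLN1 had no cartilage gene among its 5 closest, which were ENSSSCG00000008057 (named AMDHD2, r = 0.755), ENSSSCG00000027907, EML3, AP2S1 and ARHGDIA. Outside the members, the gene most like MATN1 was SNORC (0.547) and the gene most like MATN3 was WWP2 (0.559), and COMP was too scarce to read. Between members MATN1 and EPYC were the most alike (r = 0.73), and HAPLN1 and MATN4 the least (r = −0.28).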

How the data were processed

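Single-cell RNA-seq (10x Genomics 3′) was made from 8 libraries, 1 for each stage and breed. The authors deposited UMI counts per gene and barcode, made on Sscrofa11.1 with Cell Ranger 3.1.0 (E16) or 3.0.2 (all later stages). The Cell Ranger version therefore cannot be told apart from E16. Cells with at least 200 genes, at most 30000 UMIs and at most 10% mitochondrial counts were kept, and doublets were removed by Scrublet score (scanpy 1.11.5) at 0.8% per 1000 barcodes, leaving 39852689 to 57568895 UMIs per library. The counts were summed per library, or per library and gate, and tested with edgeR 4.0.16 (quasi-likelihood, R 4.3.3, TMM scaling), with adjustment over all genes tested, after the scripts had been tested on simulated data. DESeq2 1.42.0, other filters, gate limits and models, and leaving out each library were alternatives. Promoters and gene places were read from RefSeq on Sscrofa11.1. Intervals and floors of 3 counts cover counting error only. The 8 genes, the lists and the tests were chosen with earlier results of these data known. The genes named beside the members come from 7 lists (cartilage collagens, chondrogenic regulators, other cartilage matrix genes, chondroitin sulphate synthesis, hyaluronan genes, aggrecanases and matrix proteases, relatives of the members) or are the 5 genes of highest likeness to a member.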

Additional observations from a re-analysis of the deposited data

Results flagged for a closer look

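The gap between COL2A1+ and other cells differed between late and early stages for ACAN, by 4.34 on the log2 scale, and for MATN4, by 2.82, by the interaction test given above.

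In 26 groups of 4 libraries, late or early, the highest or lowest library was checked for standing apart from the other 3 (Dixon's test), where some library held more than 3 UMIs. Of these 5 were past the limit. Each group mixes stages and breeds and the groups share libraries, so the nominal rate of the test does not apply and nothing is read from the count. E18-DZ was the highest early library for MATN4 (3.99 CPM) and CNMD (1.95 CPM) and, within COL2A1+ cells, for CNMD (2.23 CPM). E18-ZZ was the lowest early library for EPYC (0.0354 CPM), and E28-DZ the highest late one for MATN3 in COL2A1+ cells (9.07 CPM).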

How the results depend on the processing

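With 1 library per stage and breed, leaving out a library leaves that stage with 1 sample, which is then assumed to vary like the others. The labels carry no replicate numbers; the fits paired stages by breed and gates by library, and without the breed term CNMD from E21 to E28 and MATN3 late against early lost their calls. Of 1481 values of single members under alternatives, 1286 kept their direction and side of the threshold, 113 lost a call, 41 gained one and 41 changed sign, none of these with a call on either side. Of 256 counts of members called, 216 stayed within 1.5 times and 40 did not; the cause was not tested.

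In whole libraries the count from E16 to E18 (1) was 0 at a mitochondrial limit of 5%, and 0 to 1 with 1 library left out. From E21 to E28 (5) it was 3 to 6 with 1 library left out. Late against early (7) gave 4 with 2 periods plus breed, 4 without the E28 libraries, and 6 to 7 with 1 library left out. Between gates, COL2A1+ against other cells (3) gave 6 without a filter on low counts. PAX1+ against other cells (1) gave 2 with DESeq2 and at COL2A1 limits of 10 UMIs and 10 per 10000 UMIs, and 0 without the library block. COL2A1+ against PAX1+ cells (2) gave 4 with DESeq2, without a filter and at both of those limits, 1 at a limit of 1 UMI, 0 without the block, and 0 to 2 with 1 library left out. Within COL2A1+ cells, E16 to E18 (1) gave 2 without a filter and 0 to 1 with 1 library left out, E18 to E21 (3) gave 5 without a filter, and the breeds (0) gave 1 with DESeq2, without a filter and at 10 UMIs. Within PAX1+ cells, E16 to E18 (1) gave 0 to 1 and E21 to E28 (1) gave 1 to 2 with 1 library left out. The late gap (4) gave 2 without the E28 libraries and 2 to 4 with 1 left out; the alternatives of this gap and of the PAX1+ cells that leave out libraries were added after seeing the data.

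The sign changes were as follows. In whole libraries, with 1 library left out, MATN4 ranged from −0.062 to 1.48 from E16 to E18, and from E18 to E21 MATN1 from −1.31 to 0.17 and EPYC from −0.089 to 1.76, with EPYC at −0.31 at the 5% limit. For DZ minus ZZ, HAPLN1 ranged from −0.042 to 0.17, EPYC from −0.041 to 0.67 and MATN4 from −0.19 to 0.44, with EPYC at −0.10 at the 5% limit. CNMD in PAX1+ against other cells was 0.26 without the block and 0.28 at 10 UMIs. Within COL2A1+ cells from E16 to E18, MATN1 was 0.15 at the 5% limit and 0.25 at 10 UMIs, ACAN −0.93 at 10 UMIs and −0.24 at 10 per 10000, EPYC −0.039 at 10 per 10000, and MATN3 −2.64 to 0.34 with 1 library left out. Late against early there, HAPLN1 was 0.18 at 10 UMIs and 0.14 at 10 per 10000. ACAN in PAX1+ cells from E16 to E18 was −0.89 to 1.92 with 1 library left out. For DZ minus ZZ in COL2A1+ cells, HAPLN1 was −0.015 with DESeq2, −0.20 at 10 UMIs and −0.045 at 10 per 10000, and ACAN was −0.023 with DESeq2, −0.015 at the 5% limit, −0.015 at 1 UMI, −0.33 at 10 UMIs and −0.048 at 10 per 10000. With 1 library left out HAPLN1 ranged from −0.32 to 0.13, ACAN from −0.30 to 0.15 and MATN4 from −0.16 to 0.50. The share of cells with COMP, late minus early, was 0.0047 percentage points when thinned to 1000 UMIs, 0.0026 at the 5% limit, and −0.0047 to 0.0024 with 1 library left out. MATN1 and EPYC before E28, and MATN3 and COMP throughout, rest on few UMIs.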
